A study of Mus musculus with 4 samples.

Results

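Mitochondria carry their own ribosomes, which translate the few respiratory chain proteins encoded by mitochondrial DNA. Each is built from a large subunit, which joins amino acids and releases the chain at the inner membrane, and a small subunit, which reads the mRNA. Its proteins are made from nuclear genes in the cytosol and imported, and liver, with its many mitochondria, makes them in quantity. The genes described here are those whose symbol in the array's annotation is Mrpl (large subunit) or Mrps (small subunit) followed by a number. There were 76 of them among 16593 named genes, 47 of the large and 29 of the small subunit, and each gene was read through the probe with its highest mean.

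RNA of whole liver was measured on 4 Illumina arrays, 2 from TAK1 KO mice, which carry a floxed TAK1 gene and Cre under the albumin promoter (Alb-Cre/ TAK1 flox), and 2 from WT mice, which carry the floxed gene without Cre (TAK1 flox). All mice were untreated C57BL/6 males 4 weeks old. Map3k7 encodes the kinase TAK1, which relays signals from cytokine and Toll-like receptors, and the comparison asks what changes in liver when hepatocytes lose it. Cre and the deletion differ together between the groups, and the albumin promoter is active in hepatocytes, not in the other cells of the liver. The labels do not say that the samples were separate animals, so p-values measure only the spread between these samples, which may be technical.

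Map3k7 itself read 125.3 and 117.9 units in TAK1 KO livers, against 155 and 138.4 units in WT livers, on a probe whose place in the transcript is not known here, so it checks nothing about the deletion. Median intensities were 81.5 to 81.9 units over the 4 arrays. In all 3022 genes (18.2%) passed an adjusted p of 0.05, of which 1743 were higher in TAK1 KO (10.5%) and 1279 lower (7.71%). The 7797 genes that exceeded 100 units on 2 or more arrays had shares of 20.8% and 15.8%. Hepatocyte genes other than Alb, whose probe read 190.5 to 214.4 units, were bright, with Ttr between 29575.7 and 39760.7 units. In whole liver, fewer cells of a type and less RNA per cell cannot be told apart.

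Most genes of the mitochondrial ribosome did not pass in either direction, and those that did were split. Of the 76 members 6 were higher in TAK1 KO liver (7.89%) and 10 were lower (13.2%), beside 10.5% and 7.71% of all genes and 20.8% and 15.8% of genes above 100 units. The remaining 60 did not pass. The shares of members are over all 76, of which 69 read above 100 units on at least 2 arrays. Differences ran between -0.66 (Mrpl24) and 0.61 (Mrpl20) on the log2 scale, and the median was -0.0089, beside -0.0036 for all genes. The TAK1 KO arrays lay above both WT arrays in 20 members and below both in 28, and the groups overlapped in 28. The KO arrays lay above in 27.3% and below in 26.6% of all genes (37.9% and 33.9% above 100 units).

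**Figure D1:**
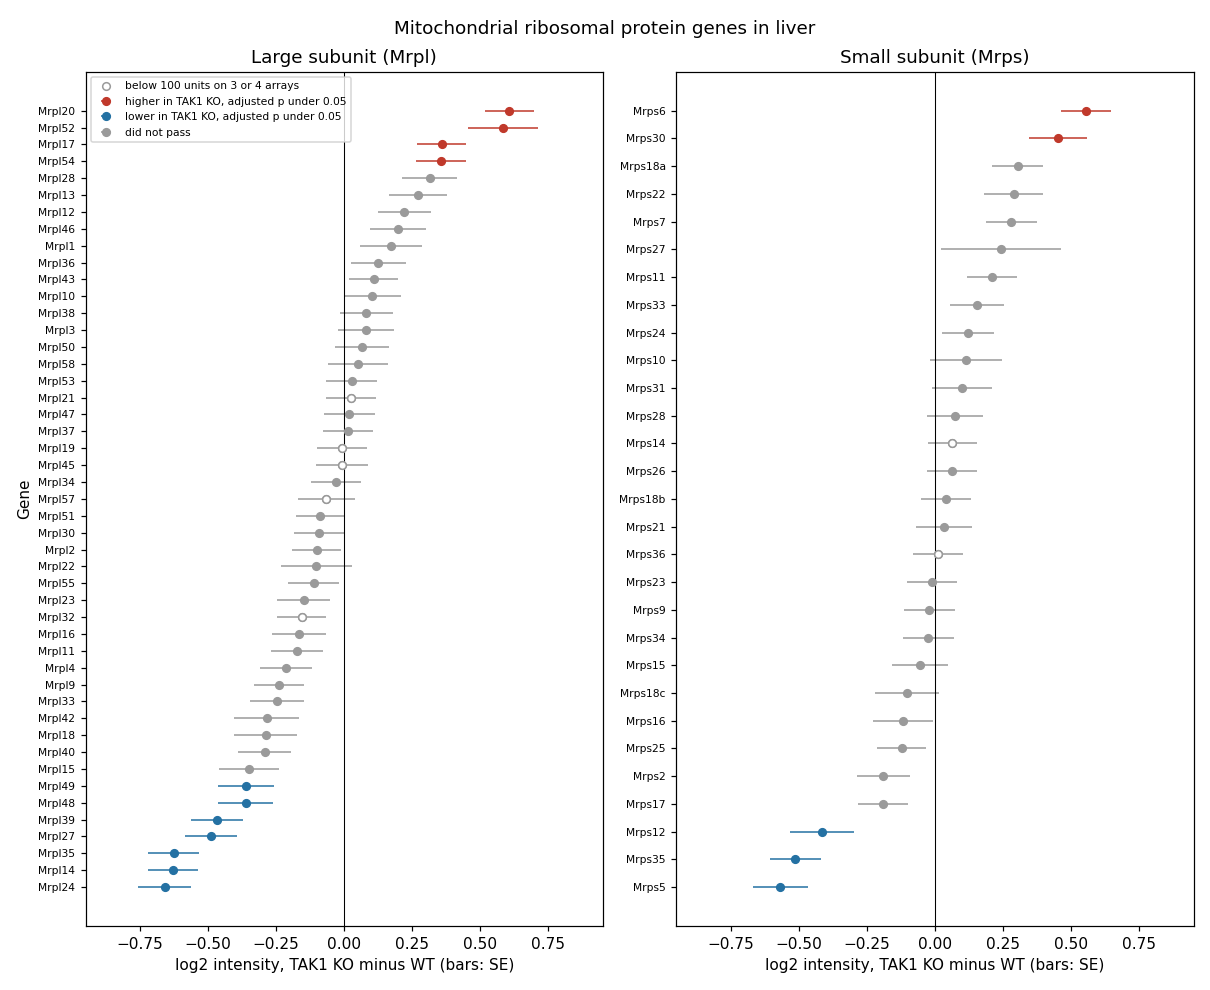
Log2 intensity in TAK1 KO minus WT liver (x axis, bars are SE, 2 arrays per group) for each of the 47 large and 29 small subunit genes, ordered by the difference. The 6 genes in red and the 10 in blue passed the test upward and downward, and open circles mark 7 genes below 100 units on 3 or 4 arrays.

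In the large subunit 4 of 47 genes rose (8.51%) and 7 fell (14.9%), with a median difference of -0.07 on the log2 scale and quartiles at -0.24 and 0.09. Of those not passing, 16 were positive and 20 negative. In the small subunit 2 of 29 rose (6.90%) and 3 fell (10.3%), with a median of 0.04 and quartiles at -0.10 and 0.15. Relative to each gene's own mean, the median large subunit gene lay at -0.04 and -0.03 on the TAK1 KO arrays and at -0.0014 and 0.04 on the WT arrays. For the small subunit these values were 0.04 and 0.02 on the KO arrays and -0.04 and 0.000039 on the WT arrays. For both subunits the gap between the KO and the nearer WT array is no larger than the gap between the WT arrays. Whether the subunits differ from each other was not tested.

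The first of the falls was in Mrpl24, whose product lies at the exit of the tunnel through which the new chain leaves. It read 525.8 and 514.3 units in TAK1 KO livers, against 874.3 and 776.9 units in WT livers (log2 -0.66 ± 0.10 SE, n = 2 per group, limma adjusted p = 0.00161). The groups were well apart, with both KO arrays lower than both WT arrays. Mrpl14, a protein of the face that meets the small subunit, read 1074.4 and 1063.8 units in TAK1 KO livers, against 1600.8 and 1712.4 units in WT livers. It was 1.55-fold lower in TAK1 KO (log2 -0.63 ± 0.09 SE, limma adjusted p = 0.00149), with KO arrays that nearly coincided. Mrpl35, a homologue of a bacterial large subunit protein, read 111 and 116.6 units in TAK1 KO livers, against 184.1 and 172.3 units in WT livers (log2 -0.63 ± 0.09 SE, limma adjusted p = 0.00164). Its readings were low, yet above 100 units on all 4 arrays. The calls for Mrpl24, Mrpl14 and Mrpl35 held in each of the 13 alternatives, with adjusted p up to 0.0254, 0.0253 and 0.0262.

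Mrpl27 also fell, to 1228.8 and 1126.3 units in TAK1 KO livers, against 1686.5 and 1619.3 units in WT livers. Its bacterial homologue reaches into the centre where the peptide bond is made. The log2 difference was -0.49 ± 0.10 (SE, limma adjusted p = 0.00651), and 0.0647 without WT replicate 1. Mrpl39, a protein found in mitochondrial and not in bacterial ribosomes, read 318.3 and 305 units in TAK1 KO livers, against 413.6 and 453.2 units in WT livers (log2 -0.47 ± 0.10 SE, limma adjusted p = 0.00813). Without WT replicate 2 its adjusted p was 0.0821. In both genes the KO arrays lay below the WT arrays without overlap.

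Mrpl48 and Mrpl49, both proteins without a bacterial counterpart, passed narrowly and on the brightest of several probes. Mrpl48 read 558.7 and 500.7 units in TAK1 KO livers, against 716.3 and 648.1 units in WT livers (log2 -0.36 ± 0.10 SE, limma adjusted p = 0.0387). Its adjusted p was 0.234 without WT replicate 1, 0.0854 without WT replicate 2 and 0.145 without TAK1 KO replicate 2. Mrpl49 read 952.2 and 912.3 units in TAK1 KO livers, against 1114.9 and 1288.4 units in WT livers (log2 -0.36 ± 0.10 SE, limma adjusted p = 0.0400). Without WT replicate 1, WT replicate 2 or TAK1 KO replicate 2 it missed the threshold, at 0.0530, 0.258 and 0.0805. With the mean over all probes of a gene, the differences became -0.15 (limma adjusted p = 0.342) and -0.13 (0.427). For Mrpl48 that mean takes in dim probes of 57.4 and 52.5 units, which differed by 0.16 and 0.12. Its further probes above 100 units differed by -0.34 and -0.33. The further probes of Mrpl49 averaged 95.9 to 116.1 units, beside 1066.95 units on the chosen probe.

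Of the 4 large subunit genes that rose, Mrpl20 and Mrpl52 changed most. Mrpl20, whose bacterial homologue binds ribosomal RNA early in assembly, read 3422.7 and 3431.8 units in TAK1 KO livers, against 2210.8 and 2292.1 units in WT livers. It was 1.52-fold higher in TAK1 KO (log2 0.61 ± 0.09 SE, limma adjusted p = 0.00160), and the call held in each of the 13 alternatives (highest adjusted p = 0.0243). Mrpl52, another protein without a bacterial counterpart, read 2726.5 and 3521.8 units in TAK1 KO livers, against 1997.5 and 2140.1 units in WT livers. Its KO arrays differed from each other more than its WT arrays did, and both lay above WT. The log2 difference was 0.58 ± 0.13 (SE, limma adjusted p = 0.0118), with 0.115 without WT replicate 1 and 0.0693 without WT replicate 2.

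Mrpl17, which lies near the tunnel exit, read 3775.5 and 3844.9 units in TAK1 KO livers, against 2989.4 and 2951.8 units in WT livers (log2 0.36 ± 0.09 SE, limma adjusted p = 0.0224). It missed the threshold without WT replicate 1 (0.105), WT replicate 2 (0.122) or TAK1 KO replicate 2 (0.0559). Mrpl54 read 1338.6 and 1335.6 units in TAK1 KO livers, against 1082.3 and 1007.5 units in WT livers (log2 0.36 ± 0.09 SE, limma adjusted p = 0.0270). For Mrpl54 the adjusted p was 0.0767 without WT replicate 1 and 0.173 without WT replicate 2. Without WT replicate 1, and likewise without WT replicate 2, fewer large subunit genes rose and fewer fell. Each of these fits left 1 WT array, and fewer genes passed in the whole table as well.

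In the small subunit the falls were in Mrps5, Mrps35 and Mrps12. Mrps5, whose bacterial homologue lines the entrance for mRNA, read 503.5 and 462.7 units in TAK1 KO livers, against 758.5 and 679.8 units in WT livers. The log2 difference was -0.57 ± 0.10 (SE, limma adjusted p = 0.00402). Mrps35, a protein specific to mitochondrial ribosomes, read 306 and 319.4 units in TAK1 KO livers, against 464 and 432.3 units in WT livers (log2 -0.51 ± 0.09 SE, limma adjusted p = 0.00468). In Mrps5 and Mrps35 the groups were well apart. Mrps12, the homologue of the bacterial protein at the site where codons are read, had 1428.8 and 1381 units in TAK1 KO livers, against 2091.7 and 1681 units in WT livers (log2 -0.42 ± 0.12 SE, limma adjusted p = 0.0380). Its WT arrays differed widely, and without WT replicate 1 the difference was -0.26 (adjusted p = 0.247). Without that array limma called 0 of the 3 falls (2 small subunit genes fell at an unadjusted p of 0.05), with adjusted p of 0.0518 for Mrps5 and 0.0543 for Mrps35.

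Mrps6 and Mrps30 rose. Mrps6, whose bacterial homologue sits on the platform of the small subunit, read 556.1 and 565.3 units in TAK1 KO livers, against 392.2 and 367.7 units in WT livers. It was 1.47-fold higher in TAK1 KO (log2 0.56 ± 0.09 SE, limma adjusted p = 0.00282), and the call held in each of the 13 alternatives (highest adjusted p = 0.0380). Mrps30 read 1590.7 and 1859.5 units in TAK1 KO livers, against 1298.7 and 1213.1 units in WT livers (log2 0.45 ± 0.11 SE, limma adjusted p = 0.0170). The Mrps30 call was lost without WT replicate 1 (0.0723), WT replicate 2 (0.137) or TAK1 KO replicate 2 (0.0627). Despite its name, the Mrps30 protein is part of the large subunit in structures of mammalian mitochondrial ribosomes, as is that of Mrps18a, and the Mrps36 protein is now placed in the oxoglutarate dehydrogenase complex. Rises in the small subunit numbered 1 without WT replicate 1, WT replicate 2 or TAK1 KO replicate 2, and 4 without TAK1 KO replicate 1.

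**Figure D2:**
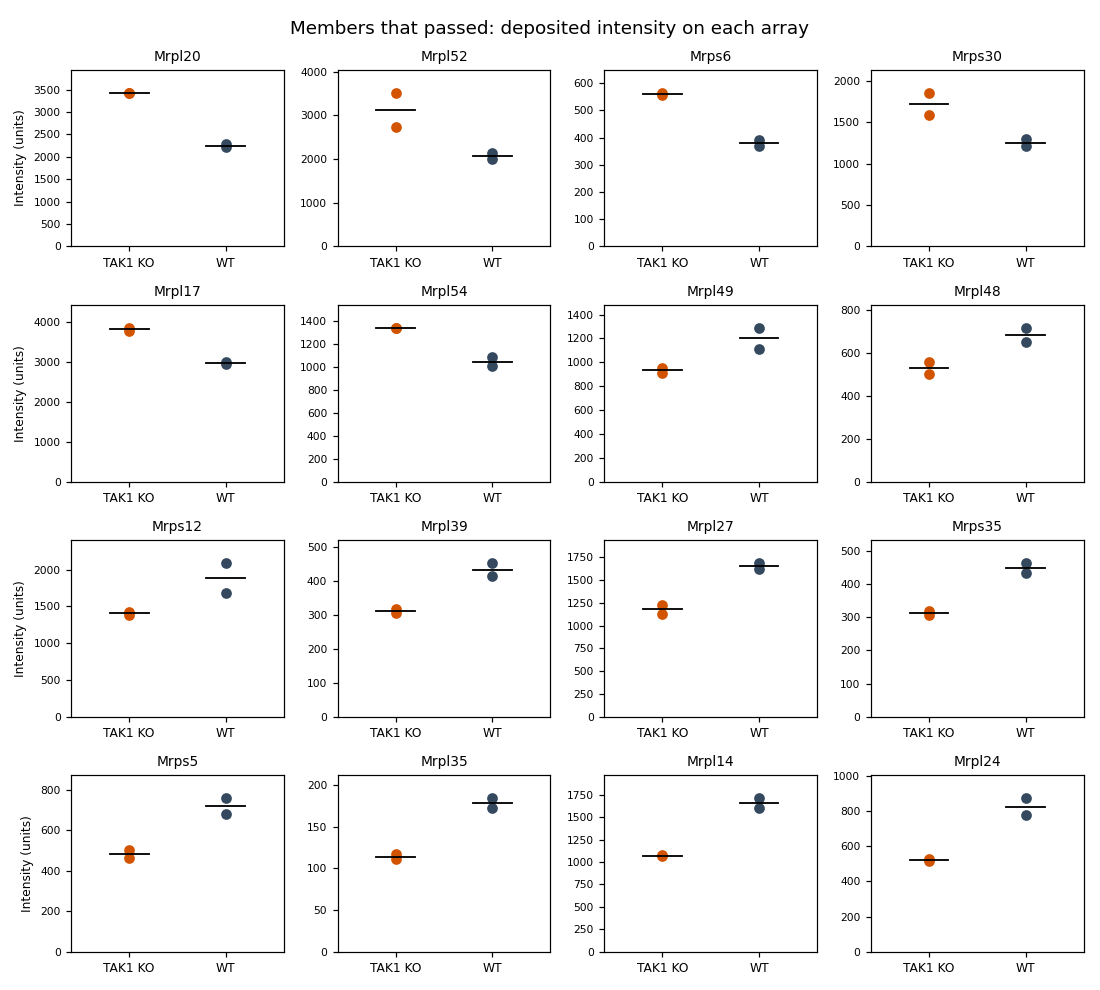
Deposited intensity (y axis, linear units from 0, a scale of its own for each gene) of the 16 members that passed, with each array as a point, the TAK1 KO arrays left of the WT arrays, and the group mean as a line. In Mrpl20 and Mrps6 the arrays of each group lie close together, while the KO arrays of Mrpl52 and the WT arrays of Mrps12 lie far apart.

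Several members known for a particular role did not pass. Mrpl12, the homologue of the bacterial stalk protein that recruits translation factors, read 2883.9 and 2730.7 units in TAK1 KO livers, against 2531.1 and 2291 units in WT livers (log2 0.22 ± 0.10 SE, limma adjusted p = 0.180). With Mrpl10, Mrpl11 and Mrpl53, the other proteins of the stalk and its base, 0 of 4 rose and 0 fell (also 0 and 0 at an unadjusted p of 0.05). Of 7 measured genes at the tunnel exit, Mrpl17 rose, Mrpl24 and Mrpl39 fell, and the others (Mrpl22, Mrpl23, Mrpl45 and Mrpl47) did not pass. As shares of the 7 these are 14.3% and 28.6%, beside 10.5% and 7.71% of all genes and 20.8% and 15.8% of genes above 100 units. Mrpl58, which frees stalled chains from the ribosome, read 228.4 and 235.2 units in TAK1 KO livers, against 203 and 246.2 units in WT livers, and the groups overlapped. Just short of the threshold were Mrps18a (adjusted p = 0.0592), Mrpl15 (0.0610) and Mrpl28 (0.0618).

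Members with and without a bacterial homologue held calls in both directions. With Mrps30 and Mrps18a placed in the large subunit and Mrps36 left out, 2 of 30 large subunit genes with a homologue rose and 4 fell, and 3 of 19 without a homologue rose and 3 fell. As shares these are 6.67% and 13.3% with a homologue and 15.8% and 15.8% without, beside 10.5% and 7.71% of all genes and 20.8% and 15.8% of genes above 100 units. In the small subunit 1 of 17 with a homologue rose and 2 fell, and 0 of 9 without a homologue rose (1 at an unadjusted p of 0.05) and 1 fell. Mrps18a was counted among the 19 without a homologue, although Mrps18b and Mrps18c, which share its name, were counted among the 17 with one. It did not pass, so its place bears on the shares and not on the counts of calls. Members that carry other symbols did not pass in limma's test. Dap3, a GTP-binding protein of the small subunit, read 2595.3 and 2404.2 units in TAK1 KO livers, against 2192.9 and 2349.4 units in WT livers (log2 0.14 ± 0.10 SE, adjusted p = 0.439). Ptcd3 and Chchd1, also of the small subunit, differed by 0.03 and 0.01 on the log2 scale, and Gadd45gip1, of the large subunit, read below 100 units on all 4 arrays.

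In some members the call depended on the probe chosen. Of the 76 members 22 had more than 1 probe, and 24 further probes read at least 100 units on average. Of these 24, 12 moved in the same direction as the chosen probe, a share that was not set beside that of other genes. Some opposite signs came from differences small beside their SE, as in Mrpl3 (0.08 ± 0.10 and -0.07 ± 0.11). Others were larger, as in Mrps7, with 0.28 ± 0.09 on the chosen probe and -0.22 ± 0.10 on the other. In Mrps31 the chosen probe gave 0.10 ± 0.11, and the further probes above 100 units gave -0.21 ± 0.11 and -0.29 ± 0.09. In the 3 members with several probes that passed (Mrpl48, Mrpl49 and Mrps5), 5 further probes read above 100 units and 0 of them passed over all probes. The further probes of Mrpl48 gave -0.34 and -0.33 and that of Mrps5 -0.30, whereas those of Mrpl49 gave 0.04 and -0.01. Those of Mrpl49 averaged 116.1 and 109.85 units, just over the limit, beside 1066.95 units on the chosen probe, so they say little about its call.

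In 2 members a further probe passed where the chosen one did not. In Mrps33 it read 890.3 and 863.8 units in TAK1 KO livers, against 1039.3 and 1251.8 units in WT livers (log2 -0.38 ± 0.11 SE, adjusted p = 0.0476 over all probes in limma), while the chosen probe gave 0.15 ± 0.10. In Mrps26 it read 346.3 and 372.7 units in TAK1 KO livers, against 277.8 and 273.5 units in WT livers (log2 0.38 ± 0.09 SE, adjusted p = 0.0228), while the chosen probe gave 0.06 ± 0.09. Mrps33 thus has probes that disagree in sign. Which transcripts the probes read is not known here.

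**Figure D3:**
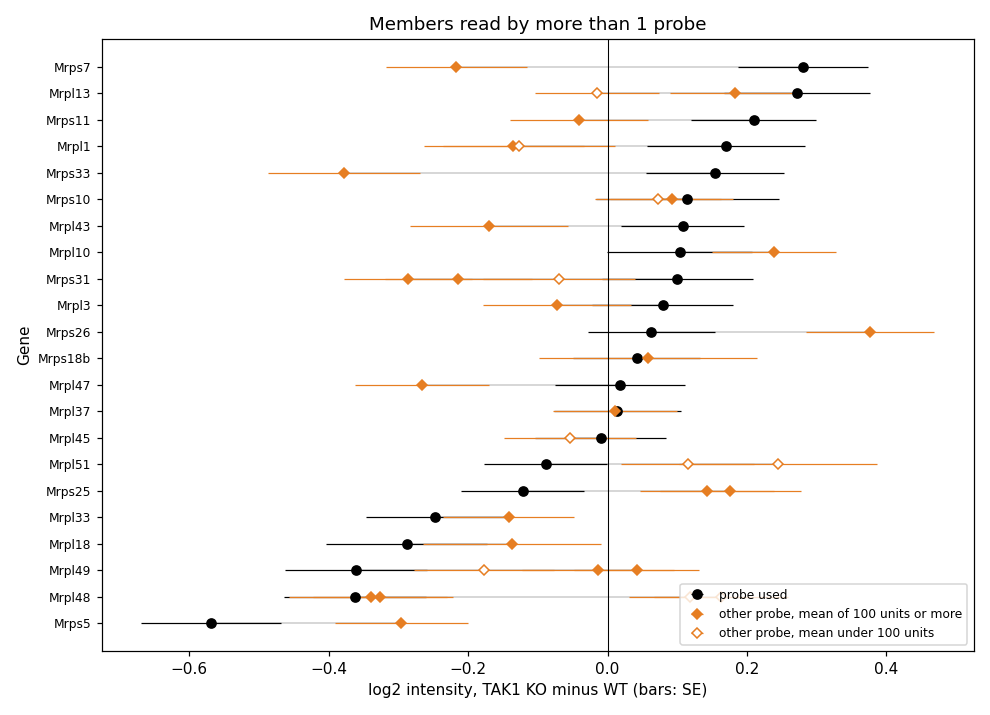
Log2 intensity in TAK1 KO minus WT liver (x axis, bars are SE, 2 arrays per group) for every probe of the 22 members with more than 1, with the probe used in black and further probes in orange, open where their mean is under 100 units. The probes of Mrps33 and Mrps7 lie on opposite sides of 0, and 3 probes of Mrpl48 lie together below 0.

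Level set a limit in 7 members, whose probes read below 100 units on 3 or 4 arrays (Mrpl19, Mrpl21, Mrpl32, Mrpl45, Mrpl57, Mrps14 and Mrps36). Mrpl32, which is cut to its mature form by the protease that Afg3l2 encodes, read 55.1 and 56.4 units in TAK1 KO livers, against 63.8 and 61.4 units in WT livers. For these genes the arrays give no measure of a change. The other 69 members read above 100 units on at least 2 arrays, and the 16 that passed the test did so on all 4. Across these 69 members the median SD within groups was 0.082 on the log2 scale, beside 0.10 for all genes above 100 units, and across all 76 it was 0.076, beside 0.088 for all genes.

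Promoter sequence was set beside the members because several factors of mitochondrial biogenesis bind short motifs at their start sites. RefSeq promoters (GRCm38.p6, 250 bases before to 50 after the start) were found for 67 of the 76 members. The ETS core CCGGAAG, read by GABP among other ETS factors, stood in the windows of 38.8% of these genes on either strand, beside 20.5% of genes above 100 units and 13.9% of all genes of the array. The core GCATGCGC of the NRF1 site stood in 11.9%, beside 6.32% and 4.29%, and the core AAGATGGC of the YY1 site in 17.9%, beside 5.46% and 3.77%. The ETS and YY1 cores can share the letters AAG, the NRF1 core can overlap itself on the other strand, and the promoters were not matched for base composition. Members that rose and that fell both had matches: the ETS core in 2 of 5 risen and 3 of 9 fallen members, the NRF1 core in 1 and 1, and the YY1 core in 0 and 3. The 250 bases before the start are shown for 2 members that rose (Mrpl17 and Mrpl52) and 1 that fell (Mrpl39), with matches in capitals, since the same motif stands before members of opposite direction. In Mrpl17 (chr7:105811088-105811337, minus strand) the capitals are the ETS and the NRF1 core, in Mrpl52 (chr14:54426659-54426908, plus strand) the ETS core, and in Mrpl39 (chr16:84735245-84735494, minus strand) the overlapping NRF1 cores of both strands.
Mrpl17: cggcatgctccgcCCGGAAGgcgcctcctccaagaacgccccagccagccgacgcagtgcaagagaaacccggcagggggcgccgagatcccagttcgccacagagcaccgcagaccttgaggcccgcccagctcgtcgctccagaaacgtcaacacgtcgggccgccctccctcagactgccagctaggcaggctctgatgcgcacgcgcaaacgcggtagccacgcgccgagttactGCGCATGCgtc
Mrpl52: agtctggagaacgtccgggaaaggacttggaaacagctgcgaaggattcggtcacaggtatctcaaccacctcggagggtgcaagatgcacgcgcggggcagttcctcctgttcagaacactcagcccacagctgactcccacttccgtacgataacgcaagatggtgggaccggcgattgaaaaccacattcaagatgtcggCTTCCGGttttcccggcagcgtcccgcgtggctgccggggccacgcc
Mrpl39: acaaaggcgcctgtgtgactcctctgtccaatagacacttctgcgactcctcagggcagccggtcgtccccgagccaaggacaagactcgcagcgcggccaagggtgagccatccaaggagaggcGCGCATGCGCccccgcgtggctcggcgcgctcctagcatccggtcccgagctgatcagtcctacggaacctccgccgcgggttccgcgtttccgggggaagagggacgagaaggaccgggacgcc

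Of the 67 members with a promoter 23 stood head to head with a partner, a gene whose start site lay within 500 bases on the opposite strand. How many of all genes have such a partner was not counted. In 13 pairs the partner was measured above 100 units on at least 2 arrays. Among the members of these pairs, Mrpl32 (partner Psma2) itself read below 100 units on all 4 arrays. In 0 of the 13 pairs did both genes pass. With 18.2% of all genes passing, 13 pairs are too few for this count to tell whether partners change together. Mrps12 lies 147 bases from Sars2, the mitochondrial seryl-tRNA synthetase, which read 108.4 and 135.3 units in TAK1 KO livers, against 115.6 and 123.6 units in WT livers (log2 0.02, adjusted p = 0.957 in limma). Mrpl14, 131 bases from the membrane protein gene Tmem63b, fell while Tmem63b differed by -0.14 without passing. In contrast, Mrpl47 differed by 0.02 and its partner Ndufb5, a subunit of complex I, fell by 0.42 on the log2 scale (adjusted p = 0.0341, and 0.236 without WT replicate 2). Mrpl46 and Mrps11, both members and 42 bases apart, differed by 0.20 and 0.21, and both lay higher on each KO array than on either WT array without passing.

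Other genes of mitochondrial translation and upkeep are counted here beside the 10.5% higher and 7.71% lower of all genes, and the 20.8% and 15.8% of genes above 100 units. Of 13 translation factors 0 rose and 2 fell (15.4%), and 2 rose and 3 fell at an unadjusted p of 0.05. The 2 that passed were Gfm2 (log2 -0.31 ± 0.09 SE, limma adjusted p = 0.0490) and the release factor Mtrf1 (-0.34 ± 0.10, 0.0429). Leaving out WT replicate 1 ended both calls (limma adjusted p = 0.159 for Gfm2 and 0.208 for Mtrf1), as did leaving out WT replicate 2 (0.208 and 0.142), and of 13 alternatives Gfm2 kept its call in 6 and Mtrf1 in 7. Of 22 genes of ribosome assembly and rRNA modification 0 rose and 1 fell (4.55%), Mterf3 (log2 -0.36 ± 0.10 SE, adjusted p = 0.0328), with 3 and 3 at an unadjusted p of 0.05. The Mterf3 call was lost without WT replicate 1 (0.0656), WT replicate 2 (0.215) or TAK1 KO replicate 1 (0.0785), and 2 assembly genes rose without TAK1 KO replicate 1.

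Among 19 tRNA-charging genes 3 rose (15.8%) and 2 fell (10.5%). Gars, the glycyl-tRNA synthetase of cytosol and mitochondria, read 4553.1 and 4577.7 units in TAK1 KO livers, against 3023.5 and 3119.1 units in WT livers (log2 0.57 ± 0.09 SE, limma adjusted p = 0.00218). Mars2, for methionine, rose by 0.50 ± 0.10 (SE, limma adjusted p = 0.00581), a call lost without WT replicate 1 or WT replicate 2. It read 151.3 and 136.8 units in TAK1 KO livers, against 99.8 and 100.9 units in WT livers. The WT readings thus lie at the limit of 100 units. Qrsl1, a subunit of the enzyme that makes glutaminyl-tRNA, rose by 0.49 ± 0.09 (0.00632, and 0.0679 without WT replicate 1), whereas Gatb, another subunit of that enzyme, fell by 0.37 ± 0.09 (0.0252). The Gatb call was lost without WT replicate 1 (0.0766), WT replicate 2 (0.165) or TAK1 KO replicate 2 (0.0715). Nars2, for asparagine, was at least 1.32-fold lower (0.0140, and 0.125 without WT replicate 2), a bound that sets readings under 100 units to the lowest value above it.

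Of 22 genes that copy, transcribe or process mitochondrial nucleic acids 5 fell and 0 rose (10 and 2 at an unadjusted p of 0.05). The 5 are 22.7% of the list, beside 7.71% lower among all genes and 15.8% among genes above 100 units, where 20 of the 22 stood. Polg2, a subunit of the mitochondrial DNA polymerase, read 126.4 and 125.1 units in TAK1 KO livers, against 188.3 and 190.5 units in WT livers (log2 -0.57 ± 0.09 SE, limma adjusted p = 0.00204). Mterf2, a factor that binds mitochondrial DNA, was at least 1.31-fold lower (adjusted p = 0.00186 in limma), and Ssbp1, the single-strand binding protein, fell by 0.46 ± 0.10 (SE, 0.00956, and 0.0917 without WT replicate 2). With WT replicate 1 left out 3 of them fell, and with WT replicate 2 left out 2 did. Of 11 regulators of mitochondrial biogenesis 3 fell (27.3%, beside the same 7.71% and 15.8%) and 0 rose (4 and 0 at an unadjusted p of 0.05). Sirt3, a mitochondrial deacetylase, fell by 0.60 ± 0.10, Gabpa, the DNA-binding subunit of GABP, by 0.56 ± 0.09, and the coactivator Ppargc1b by 0.57 ± 0.14 (SE, limma adjusted p = 0.00305, 0.00296 and 0.0183). Without TAK1 KO replicate 2, 1 regulator rose. The Ppargc1b call was lost without WT replicate 2 (0.173), and that of Gabpa with the mean over all its probes, where its difference was -0.21 (0.132).

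Beside these, the respiratory chain and ATP synthase had 1 of 76 nuclear genes higher in TAK1 KO and 9 lower, with a median log2 difference of -0.10 (2 lower without WT replicate 2). Cytosolic ribosomal proteins had 27 of 63 higher and 1 lower, with a median of 0.28 (16 and 11 higher without WT replicate 1 or 2). For the members of the mitochondrial ribosome these values were 6 and 10 of 76 and -0.0089. As shares higher and lower, the respiratory chain had 1.32% and 11.8%, the cytosolic ribosome 42.9% and 1.59%, and the members 7.89% and 13.2%. All genes had 10.5% and 7.71%, and genes above 100 units 20.8% and 15.8%. No test of the difference between the lists was made.

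**Figure D4:**
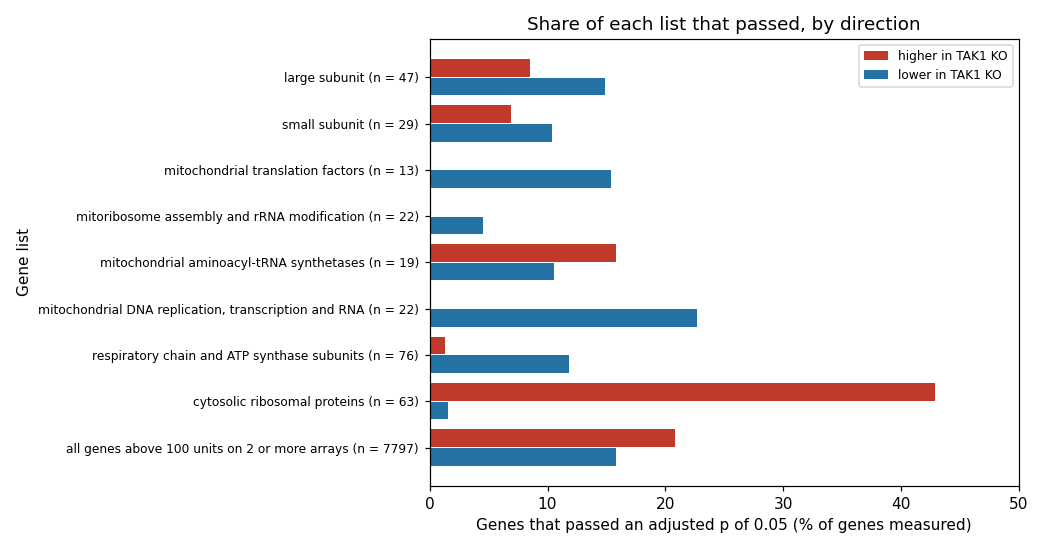
Share of measured genes (x axis, percent) that passed an adjusted p of 0.05 upward (red, higher in TAK1 KO) and downward (blue) in each list, with its number of genes, and in all genes above 100 units. The mitochondrial ribosome has shares of 8.51% and 14.9% (large subunit) and 6.90% and 10.3% (small subunit), and no bar is drawn where 0 genes passed. Shares of the lists are over all their measured genes, dim ones included.

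Markers of other liver cells differed between the same arrays, on which 10.5% of all genes rose and 7.71% fell (20.8% and 15.8% above 100 units). Of 10 measured macrophage markers 7 rose and 0 fell (9 and 0 at an unadjusted p of 0.05), and their summed intensity was 14214.3 to 14445.6 units in TAK1 KO livers, against 5796.2 to 6404 units in WT livers. Of 11 stellate and matrix genes 8 rose (sums of 17328.5 to 20473.5 units in TAK1 KO, against 8038.3 to 8486.6 in WT), and of 8 measured genes of dividing cells 8 rose (5025.8 to 8254.8 against 2414.3 to 2492.5). Of 11 hepatocyte genes 2 fell and 0 rose (4 and 2 at an unadjusted p of 0.05), with sums of 140313 to 148604 units in TAK1 KO and 137248 to 139636 units in WT livers. Of 4 measured bile duct markers 1 rose and 0 fell (sums of 324.7 to 358.8 units in TAK1 KO, against 265.3 to 291 in WT). They read above 100 units on at most 1 array each, which is too dim for a change to be read. Of 6 endothelial markers 1 fell and 0 rose (1 and 1 at an unadjusted p of 0.05). Their sums were 6943.5 to 7058.2 units in TAK1 KO and 6526.5 to 6539.2 units in WT livers. The marker that fell was Lyve1, with 380.1 and 364.7 units in TAK1 KO livers, against 638.4 and 558.9 units in WT livers. No marker was listed at 0. Their part in the differences of the mitochondrial ribosome was not tested.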

How the data were processed

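The authors deposited linear probe intensity values for 4 Illumina arrays, already normalized between arrays by a method not given in the sources used here. Trizol extraction, RNeasy clean-up and MessageAmp labelling preceded hybridisation, per the labels' protocols. The 4 columns of another table could not be tied to samples and were left out. Titles gave each sample's group and number, and no batch is named.

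Background was corrected with limma's normexp (offset 50) and values were log2-transformed, which understates changes of dim genes. Of 25697 probes 23978 had 1 gene in the platform annotation, 0 had several and 1719 were unnamed here. A gene with several probes was read through the brightest on average. The groups were compared in two-sided tests with lmFit and eBayes (limma 3.58.1 under R 4.3.3, with 2 residual and 6.85 prior degrees of freedom), with p-values adjusted by Benjamini and Hochberg over the 16593 genes (threshold 0.05). No exact permutation test was made, since its smallest p with 2 arrays per group is 0.333. No detection p was used, and 100 units served as the limit for dim genes.

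Passed members were named, with full values for up to 6 rises and 6 falls per subunit, with up to 3 passed genes in each other list. Mrpl12, Mrpl58, Mrpl32 and other members that did not pass were named for their role, probes, partners or place beside the threshold, partly after their values were seen. A further fall in Mrpl49, beyond those 6, was given because it passed. The members, lists, alternatives and the limit of 100 units were chosen with earlier results of these data known. Motifs were searched in RefSeq promoter windows with Python 3.11.15. The 2 replicates per group limit the precision of every value.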

Additional observations from a re-analysis of the deposited data

How the results depend on the processing

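With the replicate number as a block, 4 large subunit genes rose and 8 fell, 2 small subunit genes rose and 3 fell, and 3067 genes passed in all. The numbers share no stated batch, deviations of same-numbered arrays correlated at 0.025 across genes above 100 units, and the block changed the call of Mrpl15 alone among members (adjusted p = 0.0434) and ended those of Gfm2 (0.0610) and Mtrf1 (0.0535). Leaving out each array in turn gave 1 to 5 rises and 4 to 8 falls in the large subunit, 1 to 4 rises and 0 to 3 falls in the small subunit, small subunit medians of 0.0112 to 0.0577, large subunit medians of -0.0758 to -0.0474, and 1800 to 3304 genes in all. With a normexp offset of 16, rises numbered 2 and 1 and the large subunit median was -0.10. With dim genes left out that median was -0.091, over 42 genes in place of 47. With membership by structure 1 small subunit gene rose, since Mrps30 counts with the large subunit. Except where stated, the cause was not tested. Of 16 called members 5 kept their call in each of 13 alternatives, and 0 changed sign in any. Another 8 members passed in some alternative only. The same alternatives were run on the other lists after the data were seen. Signal limits the 7 members below 100 units.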

Other observations

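Genes of protein import into mitochondria were measured in 23 cases, of which 1 rose and 1 fell (4.35% each way). Among all genes 10.5% rose and 7.71% fell, and among genes above 100 units 20.8% and 15.8%. Timm50, a receptor of the inner membrane translocase, read 761.8 and 827 units in TAK1 KO livers, against 570.2 and 609.3 units in WT livers (log2 0.43 ± 0.10 SE, n = 2 per group, limma adjusted p = 0.0138). That call was lost without WT replicate 1 (0.113) or WT replicate 2 (0.0581). Timm21, of the same translocase, fell to 742.4 and 719.3 units in TAK1 KO livers, against 1002.6 and 1034.4 units in WT livers (log2 -0.48 ± 0.09 SE, limma adjusted p = 0.00575, and 0.0563 without WT replicate 2).

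Of 14 mitochondrial chaperones and proteases 1 fell and 0 rose in limma's test (3 and 0 at an unadjusted p of 0.05). The 1 fall is 7.14% of the list, beside 7.71% lower among all genes and 15.8% among genes above 100 units. Yme1l1, a protease of the inner membrane, read 181.7 and 194.9 units in TAK1 KO livers, against 318 and 322.6 units in WT livers (log2 -0.75 ± 0.09 SE, limma adjusted p = 0.000571). With the mean over all its probes the difference was -0.25 (adjusted p = 0.0734), and 2 genes of the list fell without TAK1 KO replicate 1 or 2.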
